A study of Mus musculus with 44 samples.

Results

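The type I interferon stimulated genes described here are a list of 36 genes, chosen by name because interferon alpha and beta are known to raise them, out of 29720 genes in the deposited tables. All 36 symbols were found, and all 36 passed the filter on low counts in both mouse models. They were read in intestine from 44 libraries of C57BL/6 mice, in 8 groups. In the T cell transfer model every mouse was a Rag1 null recipient, which has no T or B cells of its own. Recipients of 400000 naive T cells became colitic after 8 to 12 weeks and form the inflamed group, and recipients of 200000 bulk T cells form the non-inflamed group. In the TNFΔARE model, mice heterozygous for Tnf ΔARE, an allele without the AU-rich element that limits the life of Tnf mRNA, form the inflamed group. Their Tnf +/+ littermates, called wild-type here, form the non-inflamed group. Mice of the TNFΔARE model entered treatment at 16 weeks of age. Each of these arms received vehicle (methylcellulose and Tween20 in PBS) or 3 mg/kg of ATI-450, which inhibits MK2, a kinase encoded by Mapkapk2. A second dose followed after 16 h and tissue was taken 90 min later, by the sample labels; the series description gives another treatment time. Inflamed transfer mice gave 6 libraries on vehicle and 6 on the inhibitor, and non-inflamed ones gave 5 and 6. TNFΔARE mice gave 5 on vehicle and 6 on the inhibitor, and wild-type littermates 5 on each. The labels do not say that each library is a separate animal, so the p-values measure the spread between libraries.

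Type I interferons bind a receptor made of IFNAR1 and IFNAR2, whose kinases JAK1 and TYK2 phosphorylate STAT2. With IRF9, STAT2 enters the complex ISGF3, which binds the interferon stimulated response element in promoters. The genes it switches on encode proteins that sense viral nucleic acid, block viral RNA or restrain the signal itself. Type III interferons act on epithelium through IFNLR1 and reach the same ISGF3 complex, and interferon gamma raises part of the same genes. In the gut, interferon stimulated genes are also known to be kept at a tonic level by the microbiota.

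ISGF3 is known to bind the response element, so promoters of the 36 genes that hold a core of it are shown first. RefSeq promoters (build GRCm38.p6, 250 bases before to 50 after the gene start) were given for 26 of the 36 genes, and not for Mx1, Mx2, Oas2, Usp18, Dhx58, Zbp1, Ifi27l2a, Rtp4, Parp9 and Parp14. A core of the element, GAAANNGAAA or its reverse complement TTTCNNTTTC, was searched on both strands. It was found in 13 of the 26 (50%), against 1079 of 27025 genes (3.99%) in the whole table. The 8 windows below come from genes that the text turns to. Each is 30 bases on the strand of the gene, with the core in capitals, and overlapping matches run together.
Ifit1: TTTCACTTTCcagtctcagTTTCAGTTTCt
Ifit3: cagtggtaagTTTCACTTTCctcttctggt
Ifit3b: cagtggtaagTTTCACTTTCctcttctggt
Isg15: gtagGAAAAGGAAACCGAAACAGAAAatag
Bst2: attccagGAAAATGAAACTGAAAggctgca
Oas1a: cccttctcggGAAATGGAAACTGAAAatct
Oas1g: tgcccttctcggGAAATGGAAACTGAAAat
Rsad2: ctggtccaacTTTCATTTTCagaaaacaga
These windows lie at chr19:34640785-34640814 (+) for Ifit1, chr19:34583363-34583392 (+) for Ifit3, chr19:34607759-34607788 (+) for Ifit3b, chr4:156200871-156200900 (-) for Isg15, chr8:71537580-71537609 (-) for Bst2, chr5:120907526-120907555 (-) for Oas1a, chr5:120887614-120887643 (-) for Oas1g and chr12:26456553-26456582 (-) for Rsad2. The windows of Ifit3 and Ifit3b are identical, and those of Oas1a and Oas1g share the same run of capitals. The Isg15 window holds 3 overlapping matches and the Rsad2 window 1. Stat2, Ifih1, Trim30a, Eif2ak2 and Oas3 also have a match. No match to these letters lies in the window of Ifit2, Oasl1, Oasl2, Irf7, Irf9, Ifi44, Ifi35, Xaf1, Cmpk2, Dtx3l, Samd9l, Isg20 or Lgals3bp. A match is a description of letters and not a measured binding site.

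Transfer libraries held totals of 5.95 to 22.3 M counts (M, the prefix mega), and those of the TNFΔARE model 5.80 to 13.1 M. The tissue label is only intestine, from distal colon and ileum. Hoxb13, a homeobox gene of the distal colon, was at 102.3 to 613.1 counts per M library counts (CPM) in 22 of 23 transfer libraries and at 0 to 0.926 CPM in the TNFΔARE libraries. The library labelled inflamed vehicle transfer replicate 3 goes against its own group. Its Hoxb13 level was 0.0767 CPM, and its summed level of small intestinal enterocyte markers was 33400 CPM, against 39.58 to 1326 CPM in the other 5 libraries of its group. Results that rest on it are therefore given with and without it. A further 4 transfer libraries (inflamed vehicle replicate 1 and inflamed inhibitor replicates 3, 5 and 6) held over 1000 CPM of pancreatic genes. Batch is a number in the labels, and it was spread unevenly: inflamed vehicle transfer libraries were 1 of batch 3 and 5 of batch 4, and non-inflamed ones 3 of batch 1 and 2 of batch 4. Tnf, which checks the TNFΔARE label, was at 26.82 to 55.6 CPM in 4 of the 5 TNFΔARE vehicle libraries and at 15.56 CPM in the fifth, against 0.437 to 1.88 CPM in wild-type vehicle libraries.

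Levels of the 36 genes were summarised in each library as the mean of log2 CPM with a prior count of 2. On this log2 scale the mean was 5.54 ± 0.75 (SD, n = 6) in inflamed vehicle, 5.21 ± 0.41 (n = 6) in inflamed inhibitor, 4.68 ± 0.86 (n = 5) in non-inflamed vehicle and 4.58 ± 0.46 (n = 6) in non-inflamed inhibitor transfer mice. In the TNFΔARE model it was 4.45 ± 0.23 (n = 5) in inflamed vehicle, 4.40 ± 0.46 (n = 5) in wild-type vehicle, 4.13 ± 0.20 (n = 5) in wild-type inhibitor and 4.01 ± 0.20 (n = 6) in inflamed inhibitor mice. Every neighbour in this order of 8 overlapped with the next in its range of libraries. The inflamed vehicle transfer mean and SD include the library with small intestinal transcripts, at 6.99. The others of that group lay between 5.02 and 5.71, and inflamed inhibitor transfer libraries between 4.76 and 5.91. The models differ in tissue, host and batch at once, so levels across them stand side by side only. Per kilobase of exon, Lgals3bp, which encodes a secreted galectin-binding glycoprotein, was the most abundant of the 36 in all 8 groups, at 68.4 to 159.3 CPM per kb. Mx1 and Mx2, which are known to carry inactivating mutations in most laboratory strains, were among the lowest.

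**Figure D1:**
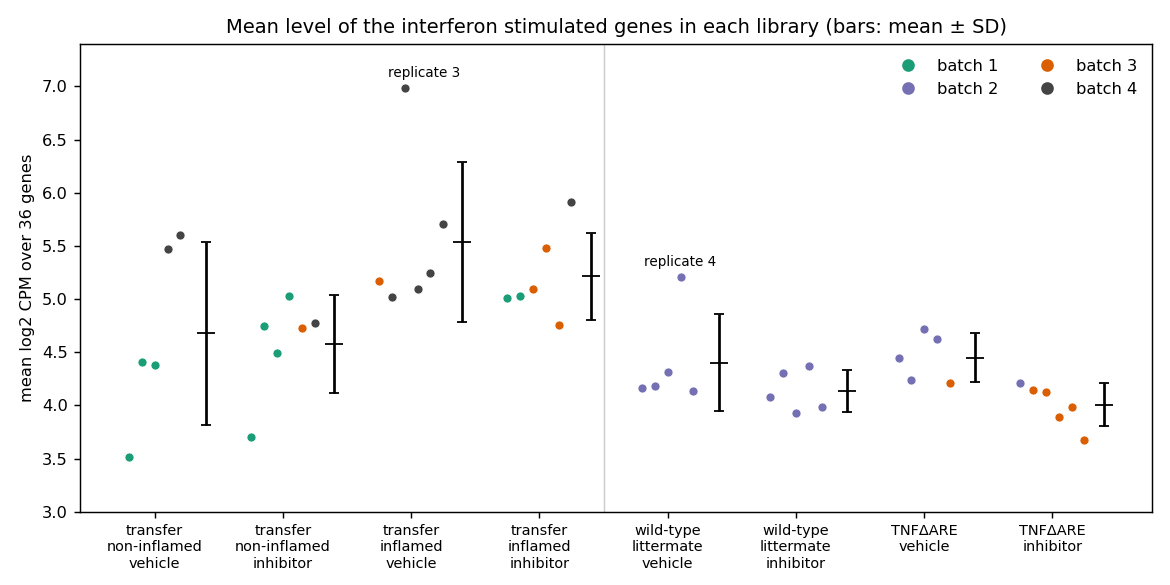
Mean log2 CPM over the 36 genes (y axis) in each library, by group (x axis), coloured by batch, with bars for the mean ± SD. Inflamed vehicle transfer replicate 3 stands at 6.99 where the others of its group lie between 5.02 and 5.71, and wild-type vehicle replicate 4 at 5.21 where its others lie between 4.14 and 4.32.

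The 36 genes varied more between libraries of a group than most genes did. The median SD within groups, on the log2 scale, was 0.81 over the 36 genes and 0.47 over all genes tested in the transfer model, and 0.46 against 0.37 in the TNFΔARE model. In transfer mice it ran from 0.37 for Irf9 to 1.32 for Ifi44, and in the TNFΔARE model from 0.16 for Ifih1 to 1.10 for Rtp4. Single libraries stood high or low for most of the list at once. Inflamed vehicle transfer replicate 3 was the highest of its group for 32 of the 36 genes, where it was the highest for 25% of all genes tested, and the median ratio to the other libraries was 3.81. Wild-type vehicle replicate 4 was the highest for 27 of the 36 (33.9% of all genes), with a median ratio of 1.91. Non-inflamed vehicle transfer replicate 1 was the lowest of its group for 30 genes, with a median ratio of 0.421, while replicates 6 and 7 were the highest for 17 and 18. Replicates 6 and 7 were of batch 4, with mean log2 CPM of 5.47 and 5.60. Replicates 1, 2 and 4 were of batch 1, with 3.52, 4.41 and 4.38. The SD within groups takes no account of batch, and the part of batch in this spread was not tested. The small intestinal enterocyte markers were also high in wild-type vehicle replicate 4, at 29110 CPM, and the T cell markers summed to 142.1 CPM there, the highest of its group. The part of these markers in the high interferon gene levels was not tested.

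**Figure D2:**
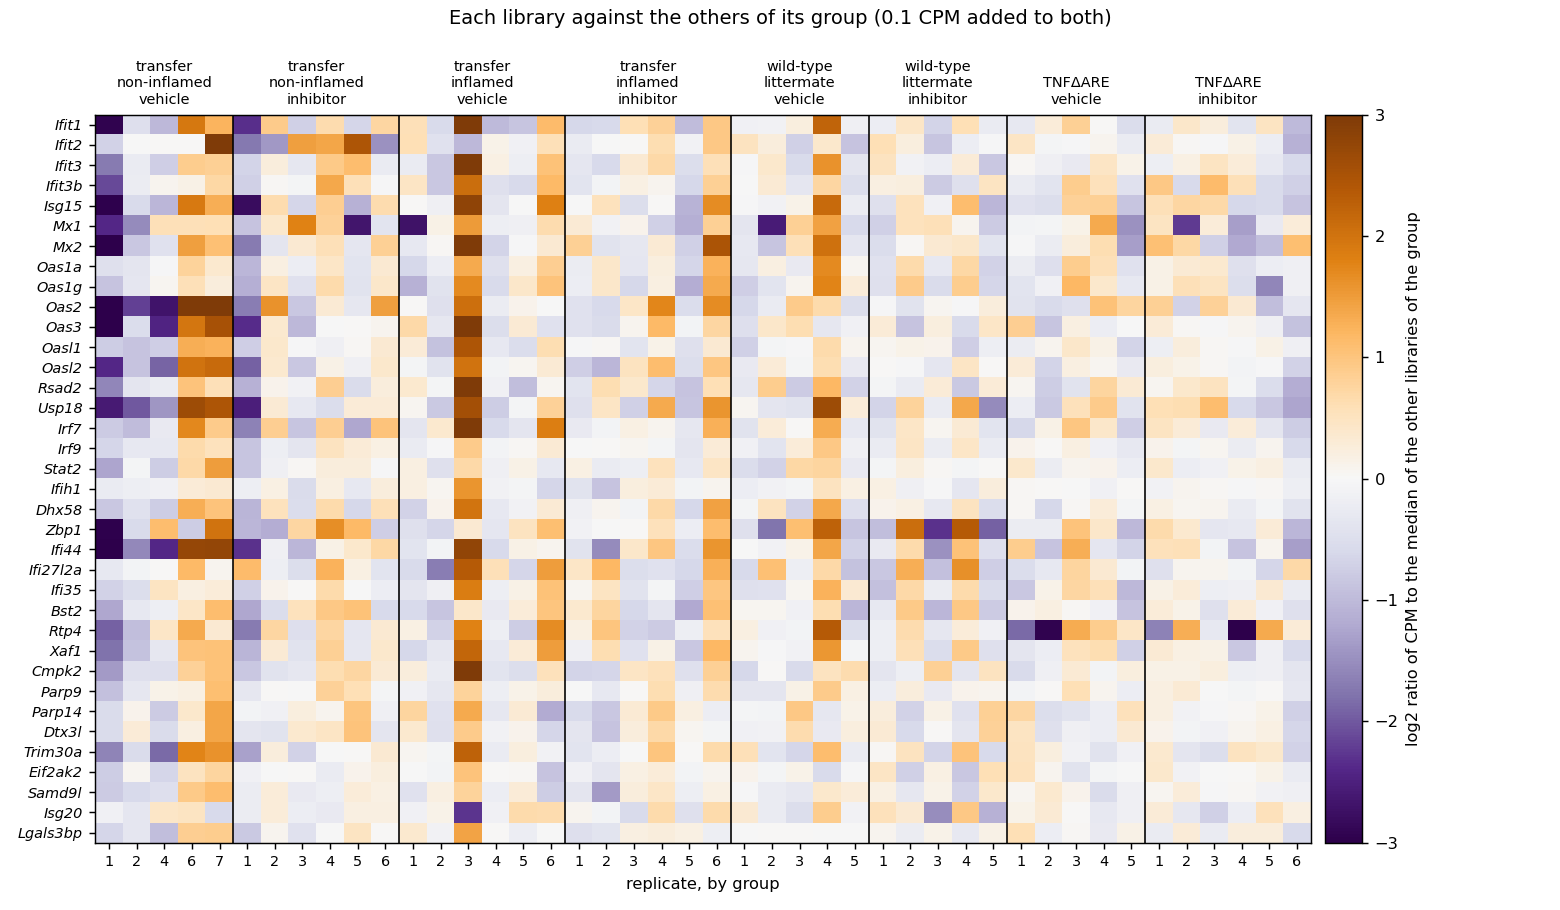
The log2 ratio of each gene's CPM to the median of the other libraries of its group (colour, which stops at 3 in either direction) for 36 genes (y axis) and 44 libraries (x axis, replicate numbers by group), after adding 0.1 CPM. Columns of 1 colour, such as inflamed vehicle transfer replicate 3 and non-inflamed vehicle transfer replicates 1, 6 and 7, show libraries in which most of the genes were shifted together.

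Transfer colitis was compared with non-inflamed recipients on vehicle to see how these genes differ with inflammation. The kind and number of transferred T cells differ between these groups too, and cannot be told apart from inflammation. Usp18, Ifi27l2a and Bst2 rose, no gene fell, and the other 33 did not pass the test (edgeR's quasi-likelihood test with Benjamini-Hochberg adjustment over 15317 genes, threshold 0.05). Of all genes tested, 7.9% were called higher and 6.28% lower, so 3 of 36 is close to the background. The log2 fold change was positive for 32 of 36, with a median of 0.58 against 0.05 over all genes tested. That median rested on the library with small intestinal transcripts: without it, 16 of 36 were positive and the median was -0.05. The count of calls was again 3 without it, with Usp18 and Bst2 higher and Ifih1, which encodes the RNA sensor MDA5, lower. The share of all genes called in that fit is not given here.

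Usp18 encodes the protease that removes ISG15 from proteins and also binds IFNAR2 to restrain the signal. Its level was 33.1, 18.93, 188.9, 19.64, 31.92 and 56.28 CPM in inflamed vehicle replicates 1 to 6, and 1.66, 2.58, 3.66, 20.04 and 17.49 CPM in non-inflamed vehicle replicates 1, 2, 4, 6 and 7. Non-inflamed replicate 6 lay within the inflamed range, and replicate 7 just under it. Both were of batch 4, as were inflamed replicates 2 to 6. The low non-inflamed replicates 1, 2 and 4 were all of batch 1, which held no inflamed vehicle library. The fold change was 2.29 ± 0.64 (log2 ± SE, adjusted p = 0.0213), and 1.52 (adjusted p = 0.0432) without inflamed replicate 3. It no longer passed without inflamed replicate 1 (adjusted p = 0.0534) or non-inflamed replicate 6 (adjusted p = 0.0535).

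Bst2, or tetherin, holds budding virus at the cell surface and is also a marker of plasmacytoid dendritic cells. It measured 40.31, 33.96, 67.98, 50.81, 61.29 and 102.0 CPM in inflamed vehicle mice against 8.95, 17.22, 18.32, 24.08 and 38.62 CPM in non-inflamed ones. Only the highest non-inflamed library overlapped with the inflamed range. The fold change was 1.29 ± 0.40 (adjusted p = 0.0356). It missed the threshold in 5 of the 11 fits with 1 library left out: without inflamed replicates 1 (adjusted p = 0.0765) or 6 (0.0797), or non-inflamed replicates 1 (0.0634), 2 (0.0527) or 6 (0.130). Of 8 plasmacytoid markers, with Bst2 among them, Bst2, Ccr9 and Irf8 rose, Klk1 fell and 4 did not pass, with a median of 0.83. Their summed level was 323.2 to 534.5 CPM in inflamed and 370.7 to 817.5 CPM in non-inflamed vehicle libraries. Siglech, which encodes a lectin of these cells, was at 0.154 to 0.926 CPM against 0.316 to 1.02 CPM (-0.94 ± 0.47, adjusted p = 0.185). The part of these cells in the Bst2 change was not tested.

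Ifi27l2a, a small protein of the IFI27 family, was at 22.98, 10.64, 118.6, 34.13, 21.78 and 65.13 CPM in inflamed and 9.39, 10.9, 11.39, 25.01 and 11.78 CPM in non-inflamed vehicle libraries. The groups overlapped at both ends. Its fold change was 1.69 ± 0.52 (adjusted p = 0.0346) and became 1.22 (adjusted p = 0.0615) without inflamed replicate 3. The call was also lost without inflamed replicates 1 (adjusted p = 0.0646) or 6 (0.0647) and without non-inflamed replicates 1 (0.0612), 2 (0.0545) or 7 (0.0721).

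Among the IFIT proteins, which bind viral RNA, none passed in this comparison. Ifit2 was at 200.9, 107.0, 71.28, 143.7, 132.2 and 197.2 CPM in inflamed vehicle mice. In 4 of the non-inflamed vehicle mice it was at 9.14 to 14.87 CPM, and in replicate 7 at 194.5 CPM. The fitted change of 1.19 ± 0.62 (adjusted p = 0.196) therefore had 1 library against it, and Ifit2 was called higher once that library was left out. Its T cell markers summed to 49.22 CPM (others of its group 5.37 to 15.38). Its monocyte and macrophage markers summed to 434.3 CPM (others 148.4 to 296.8). The part of these cells in its Ifit2 level was not tested. Ifit1 was at 51.97, 35.08, 469.7, 26.13, 28.45 and 76.83 CPM against 6.52, 33.66, 24.98, 113.0 and 68.56 CPM. Of the non-inflamed libraries 2 lay below all inflamed ones and 3 within their range, inflamed replicate 3 lay above all non-inflamed ones, and the sign of the Ifit1 change turned to -0.45 without that library. Ifit3b had a fold change of 0.015 with a 95% interval of -1.02 to 1.05. Ifit3 and Ifit3b are near-identical copies, as are Oas1a and Oas1g, so the authors' read assignment could split reads between them and their values are uncertain. Parp9 and Dtx3l overlap on opposite strands, and whether strand was used in the counting is not given in the sources used here.

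Isg15, the ubiquitin-like protein that USP18 removes, was at 37.22, 33.23, 256.8, 29.09, 36.75 and 130.3 CPM in inflamed and 5.18, 25.76, 19.85, 85.82 and 56.52 CPM in non-inflamed vehicle libraries. The groups overlapped. Within a library, the ratio of Usp18 to Isg15 CPM had a median of 0.706 in the inflamed and 0.234 in the non-inflamed group. Irf7, the factor that amplifies interferon production, was at 68.78, 89.15, 580.5, 58.91, 69.5 and 250.2 CPM against 52.4, 46.25, 68.4, 198.1 and 113.0 CPM. Its change was -0.11 without inflamed replicate 3. Stat2, a subunit of ISGF3, was at 81.99, 58.9, 116.2, 71.95, 80.57 and 65.42 CPM against 20.64, 41.24, 28.9, 57.12 and 97.82 CPM. It was called higher without non-inflamed replicate 7 (0.83, adjusted p = 0.0423). Oas1g, a 2'-5' oligoadenylate synthetase, was at 26.07, 42.65, 138.9, 37.71, 56.33 and 85.98 CPM against 28.56, 41.77, 50.55, 68.88 and 54.98 CPM. Its fold change of 0.13 had an interval of -0.62 to 0.88.

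Next in order of p were Ifi35 (0.95 ± 0.37, adjusted p = 0.0907), Lgals3bp (0.69 ± 0.27, 0.0949), Oasl1, a feedback inhibitor of Irf7 translation (1.06 ± 0.44, 0.111), Parp9 (0.57 ± 0.28, 0.173), Cmpk2 (1.03 ± 0.56, 0.218) and Mx2 (1.30 ± 0.74, 0.237). Parp14 had a fold change of 0.13 (95% interval -0.55 to 0.81). The remaining genes lay between -0.38 and 1.13. No gene of the 36 had ranges of CPM that did not overlap between the groups, where 3.43% of all genes were higher and 3.2% lower without overlap. Within batch 4, the batch that held both groups with over 1 library, the mean log2 CPM over the list was higher in inflamed mice by 0.0739 (5 against 2 libraries). Without the library with small intestinal transcripts the difference was -0.271, and without each of the others it lay between 0.0057 and 0.221.

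**Figure D3:**
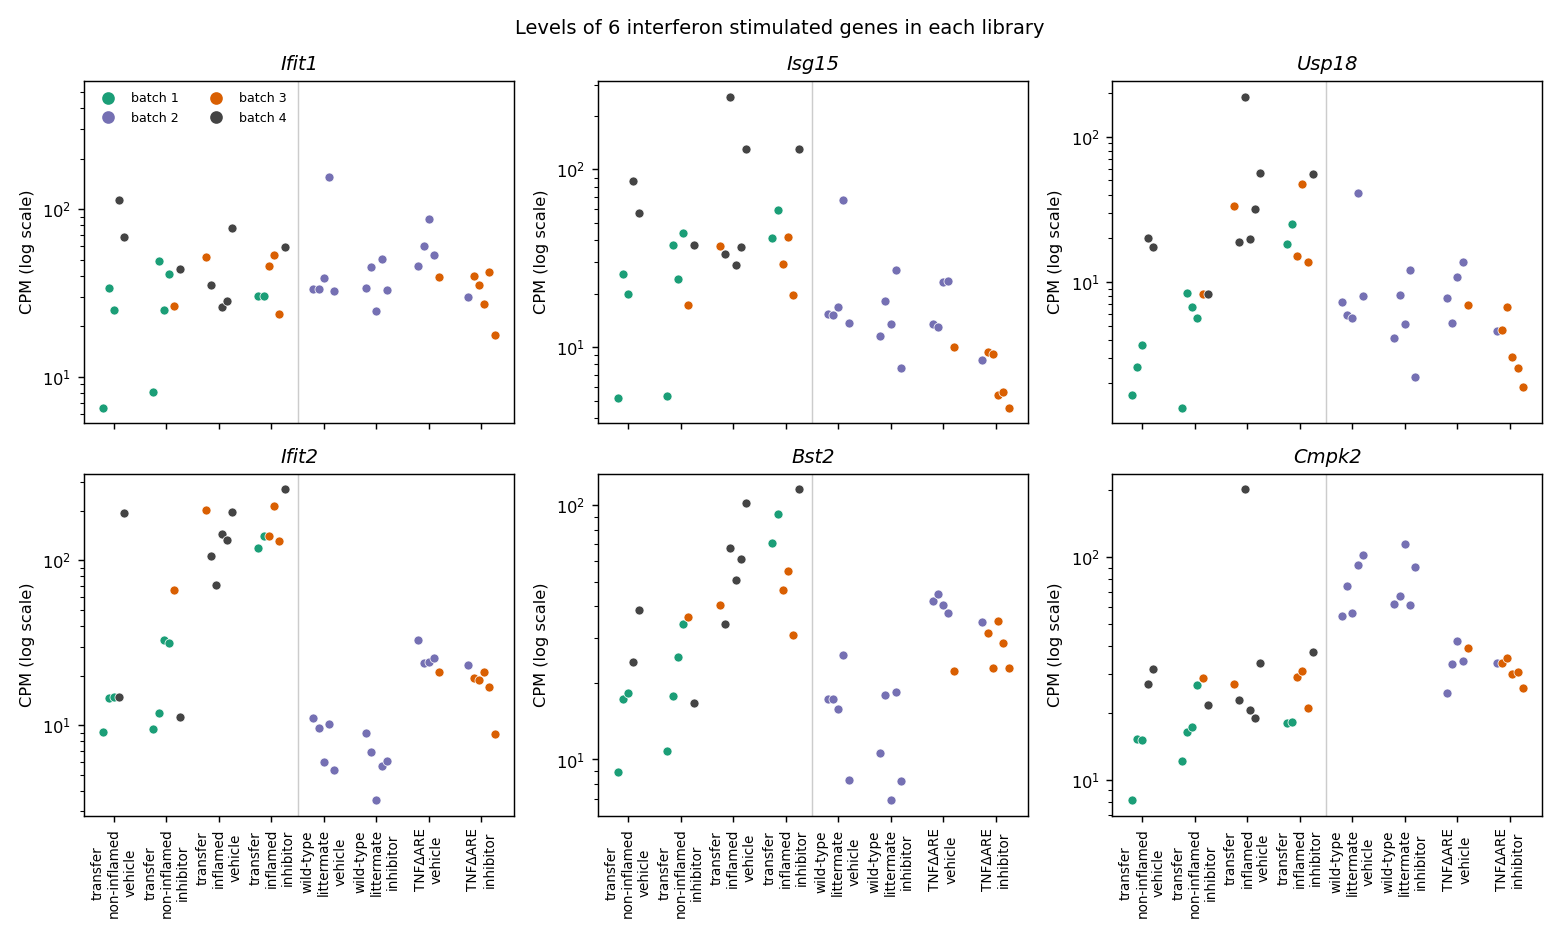
CPM on a log axis (y axis) of Ifit1, Isg15, Usp18, Ifit2, Bst2 and Cmpk2 in each library of the 8 groups (x axis), coloured by batch. Bst2 and Ifit2 are high in most inflamed libraries of both models, Cmpk2 is low in the TNFΔARE libraries (24.62 to 41.96 CPM on vehicle) against the wild-type ones (54.49 to 102.4 CPM), and Ifit1 and Isg15 overlap between inflamed and non-inflamed libraries.

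TNFΔARE mice were compared with wild-type littermates on vehicle to ask the same of a model driven by Tnf. Here Tnf genotype and inflammation cannot be told apart. Ifit2, Bst2 and Lgals3bp rose, Cmpk2 fell, and the other 32 genes did not pass. The background was 8.66% of 14370 genes called higher and 7.27% lower. The list had no common direction: 20 of 36 fold changes were positive, with a median of 0.02 against -0.02 over all genes tested.

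Ifit2 was at 32.8, 23.98, 24.05, 25.54 and 20.93 CPM in TNFΔARE vehicle mice and at 11.06, 9.60, 5.94, 10.15 and 5.35 CPM in wild-type vehicle mice. Every TNFΔARE library was above every wild-type library. The fold change was 1.66 ± 0.25 (adjusted p = 0.00012), and it stayed between 1.54 and 1.79 with each library left out. Ifit1, of the same gene cluster on chromosome 19, measured 45.93, 59.85, 87.83, 53.41 and 39.58 CPM against 33.24, 33.53, 38.74, 154.8 and 32.32 CPM. Here 4 of 5 wild-type libraries were below all TNFΔARE libraries and replicate 4 was above them all. The Ifit1 fold change was 0.010 (95% interval -0.82 to 0.84), and 0.79 (adjusted p = 0.0391) without that wild-type library. Without it, 9 of the 36 genes were called. Ifit1, Ifit2, Oas1a, Ifi44, Bst2, Trim30a, Isg20 and Lgals3bp were higher, Cmpk2 was lower, and the median was 0.32. The share of all genes called in that fit is not given here, so this count stands without its background.

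Bst2 was at 42.06, 44.7, 40.5, 37.55 and 22.27 CPM in TNFΔARE and 17.27, 17.29, 15.75, 25.63 and 8.30 CPM in wild-type vehicle mice. Only the lowest TNFΔARE library fell within the wild-type range. Its fold change was 1.24 ± 0.27 (adjusted p = 0.00333), and 1.07 to 1.45 with each library left out. Of 7 plasmacytoid markers tested here, Bst2, Siglech and Ly6d rose and none fell. Siglech was at 1.34 to 4.16 CPM against 0.105 to 0.942 CPM, without overlap (2.04 ± 0.43, adjusted p = 0.00232). The summed level of the markers was 269.1 to 436.8 CPM against 230.2 to 391.1 CPM, and their part in the Bst2 change was not tested. Lgals3bp was at 372.9, 232.6, 259.0, 219.3 and 272.4 CPM in TNFΔARE mice, all above the 193.5 to 196.9 CPM of the wild-type mice. The change was small (0.47 ± 0.15, adjusted p = 0.0335). It rested in part on TNFΔARE replicate 1, without which it was 0.29 (adjusted p = 0.184), and it also missed the threshold without wild-type replicates 1, 2, 3 or 5 (adjusted p from 0.0533 to 0.0596).

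Cmpk2, a mitochondrial nucleotide kinase next to Rsad2 on chromosome 12, went down. It measured 24.62, 33.14, 41.96, 34.17 and 39.31 CPM in TNFΔARE mice and 54.49, 74.76, 56.37, 92.69 and 102.4 CPM in wild-type mice, with no overlap. The fold change was -1.15 ± 0.21 (adjusted p = 0.000837) and kept its call with each library left out (-1.25 to -1.02). Its neighbour Rsad2, which encodes viperin, changed by -0.72 ± 0.33 (adjusted p = 0.163). The ratio of Cmpk2 to Rsad2 CPM had a median of 7.47 in wild-type and 6.23 in TNFΔARE vehicle mice, and of 1.2 and 2.34 in non-inflamed and inflamed vehicle transfer mice. Enterocyte markers averaged 10760 CPM in TNFΔARE and 20600 CPM in wild-type vehicle libraries, and 6 of the 9 were called lower. Whether the Cmpk2 difference moves with them was not tested. In whole tissue, fewer cells of a type and less RNA per cell cannot be told apart.

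Other members with known roles were not called. Isg15 was at 13.49, 12.97, 23.27, 23.67 and 10.06 CPM in TNFΔARE and 15.47, 15.08, 16.74, 67.06 and 13.76 CPM in wild-type vehicle mice, with overlap. Usp18 was at 7.75, 5.23, 10.85, 13.76 and 6.98 CPM against 7.23, 5.91, 5.65, 41.22 and 7.97 CPM, also with overlap. Ifi27l2a was at 12.56 to 26.52 CPM against 12.34 to 35.53 CPM. None of the transcription factors passed. Irf7 was at 56.7, 82.85, 136.3, 92.02 and 52.73 CPM against 74.44, 104.8, 94.02, 218.3 and 81.01 CPM. Stat2 was at 34.12 to 48.66 CPM against 32.69 to 66.43 CPM. Oas1g was at 12.06 to 31.1 CPM against 13.66 to 67.16 CPM.

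The next members by p were Trim30a, a TRIM protein that restrains Toll-like receptor signalling (0.77 ± 0.28, adjusted p = 0.0749), Ifih1 (-0.29 ± 0.12, 0.103), the exonuclease gene Isg20 (0.74 ± 0.31, 0.118), Mx2 (-1.02 ± 0.44, 0.129) and Ifi44 (0.84 ± 0.42, 0.201). At the other end were Dtx3l (0.03, 95% interval -0.42 to 0.48) and Eif2ak2, the RNA-activated kinase PKR (0.007, -0.42 to 0.43). The rest lay between -0.66 and 0.49. Ranges did not overlap for Ifit2 and Lgals3bp (6.01% of all genes were higher without overlap) and for Cmpk2 (3.65% were lower). Within batch 2 the mean log2 CPM over the list was higher in TNFΔARE mice by 0.107 (4 against 5 libraries). The difference was 0.308 without wild-type replicate 4, and between 0.0355 and 0.198 without each of the others.

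**Figure D4:**
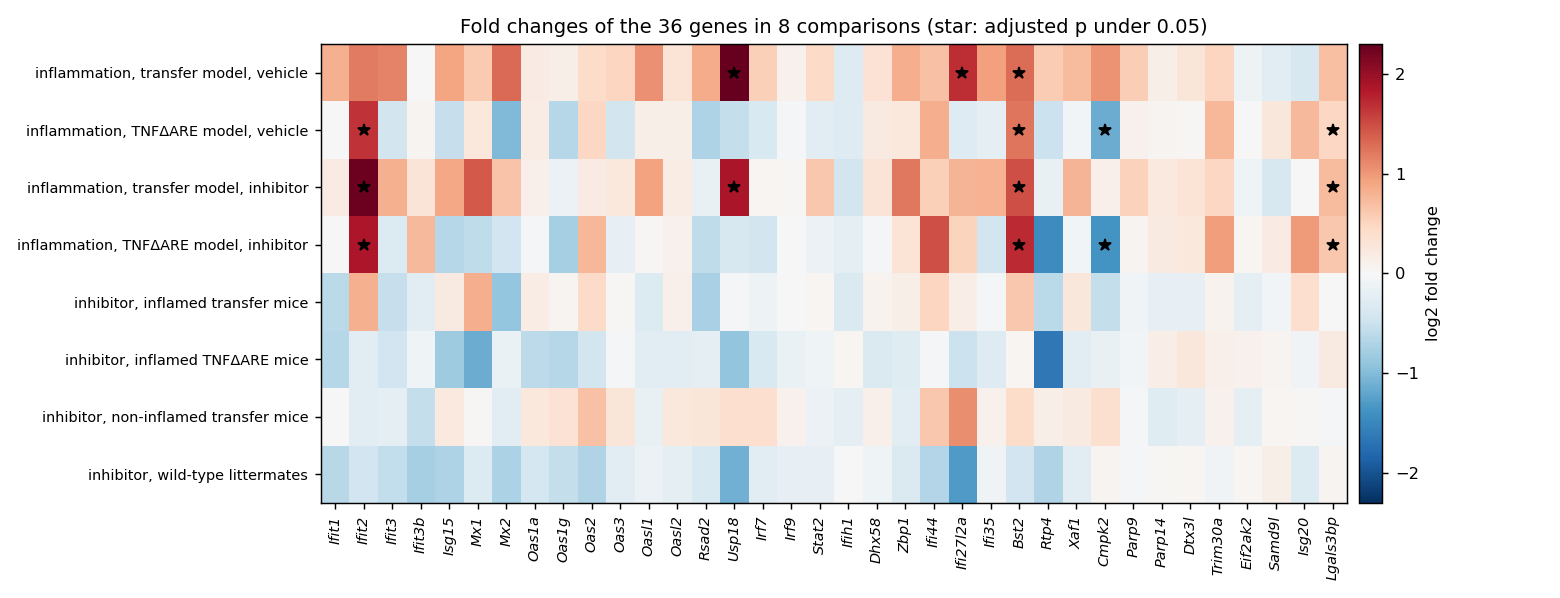
Fitted log2 fold changes (colour) of the 36 genes (x axis) in 8 comparisons (y axis), with a star where the adjusted p was under 0.05. Stars for Bst2 stand in all 4 inflammation comparisons, and the 4 inhibitor comparisons hold no star.

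The same contrast was tested directly between the models in a joint fit of the 44 libraries. Model, tissue and batch cannot be told apart in it. Cmpk2 and Usp18 had a higher inflammation effect in transfer mice than in TNFΔARE mice, by 2.17 ± 0.61 (log2 ± SE, adjusted p = 0.0289) and 2.82 ± 0.86 (adjusted p = 0.0462). No gene of the 36 was called in the other direction, and 5.27% of all genes were called, 3.37% higher and 1.91% lower. The median difference was 0.41 against 0.05 over all genes. It was -0.02 without the library with small intestinal transcripts. There, Cmpk2 was 1.11 (adjusted p = 0.0478) and Usp18 2.03 (adjusted p = 0.142). The Usp18 call was lost in 12 of 21 fits with 1 library left out, and the Cmpk2 call without non-inflamed transfer replicate 6, TNFΔARE replicate 1 or wild-type replicate 5. Next were Ifi27l2a (1.98 ± 0.64, adjusted p = 0.0635), Mx2 (2.31 ± 0.88, 0.119), Ifi35 (1.17 ± 0.47, 0.15), Isg20 (-1.12 ± 0.49, 0.192), Ifit3 (1.54 ± 0.72, 0.233), Stat2 (0.67 ± 0.33, 0.261), Rsad2 (1.55 ± 0.85, 0.326) and Isg15 (1.42 ± 0.78, 0.326). The difference for Bst2 was 0.04 (95% interval -0.94 to 1.02), for Ifih1 -0.02 (-0.68 to 0.65) and for Oas1a 0.01 (-0.89 to 0.91).

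Ifit1 and Ifit2 lie in the same cluster on chromosome 19, and their ratio moved from group to group. The ratio of Ifit2 to Ifit1 CPM within a library had a median of 0.166 (0.0655 to 0.333) in wild-type and 0.478 (0.274 to 0.714) in TNFΔARE vehicle mice. In inflamed vehicle transfer mice the median was 3.46, with 0.152 in the library with small intestinal transcripts, against 0.592 in non-inflamed vehicle mice (0.132 to 2.84). With the inhibitor the inflamed medians were 4.31 in transfer (3.06 to 5.58) and 0.516 in TNFΔARE mice. The promoter window of Ifit1 shown above holds 2 copies of the core, and that of Ifit2 holds none in the letters searched. Whether these letters bear on the ratio was not tested.

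**Figure D5:**
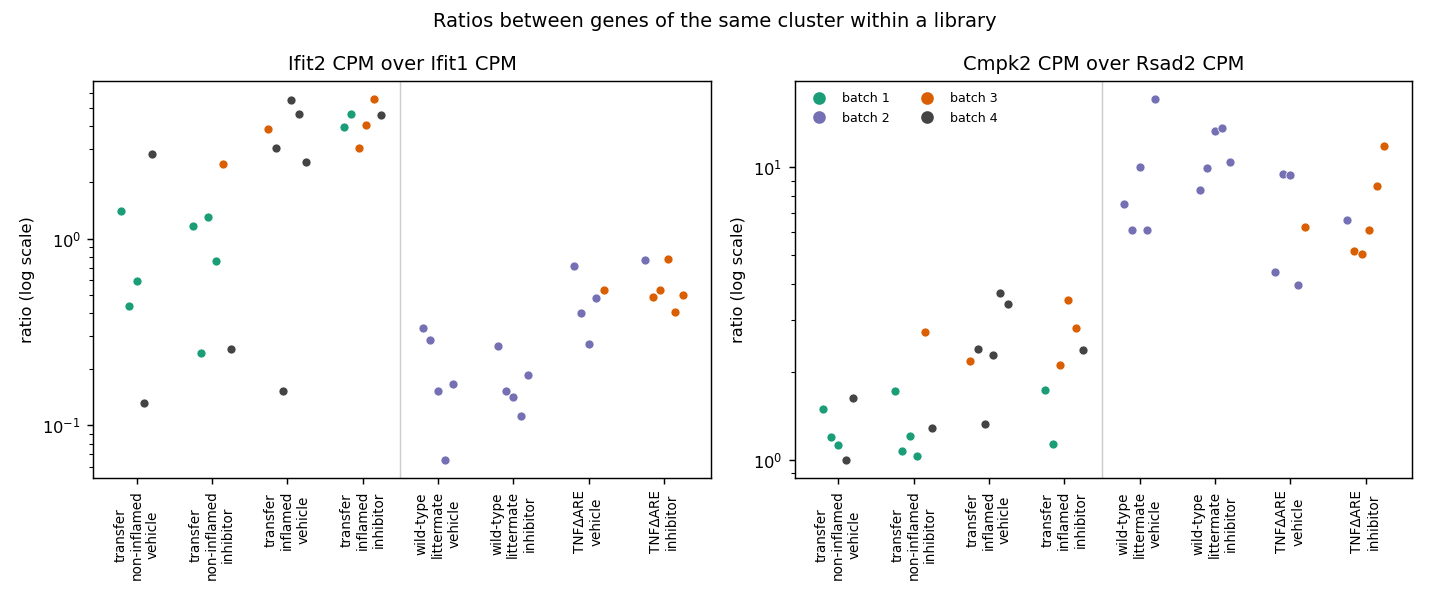
Ratio of Ifit2 to Ifit1 CPM (left) and of Cmpk2 to Rsad2 CPM (right) in each library, on log axes (y axis) by group (x axis) and coloured by batch. The Ifit2 to Ifit1 ratio is above 3 in every inflamed inhibitor transfer library and under 0.8 in all TNFΔARE vehicle libraries.

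ATI-450 was compared with vehicle in inflamed mice to see whether MK2 inhibition moved these genes. In inflamed transfer mice none of the 36 was called by edgeR, none had an unadjusted p under 0.05, and DESeq2 and limma-voom also called 0. Over all genes 0.00653% were called. Fold changes were split 18 positive and 18 negative with a median of -0.001, between -0.89 for Mx2 and 0.84 for Mx1. Without inflamed vehicle replicate 3 the median was 0.36, and 34 of 36 were positive. The smallest p were those of Bst2 (0.61 ± 0.39), Mx1 (0.84 ± 0.59), Ifit2 (0.82 ± 0.63), Mx2 (-0.89 ± 0.76), Isg20 (0.39 ± 0.36), Rtp4 (-0.63 ± 0.58), Ifih1 (-0.33 ± 0.31), Cmpk2 (-0.55 ± 0.57), Rsad2 (-0.75 ± 0.79) and Eif2ak2 (-0.23 ± 0.24), all with an adjusted p of 0.99. The intervals were wide: Oas3 had a fold change of 0.02 with a 95% interval of -1.46 to 1.5, Lgals3bp -0.01 (-0.59 to 0.57) and Irf9 0.007 (-0.45 to 0.46).

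In inflamed inhibitor transfer mice Usp18 was at 13.77, 21.69 and 55.48 CPM (lowest, median and highest of 6), Ifit2 at 119.2, 140.9 and 270.8 CPM and Bst2 at 30.75, 62.8 and 115.4 CPM. Each of these ranges overlapped with that of the vehicle mice, as did those of all 36 genes, where 0.0588% of all genes were higher and 0.0783% lower without overlap. Isg15 was at 19.56 to 59.07 CPM in 5 libraries and at 130.4 CPM in replicate 6, and Irf7 at 63.95 to 85.93 CPM in 5 and at 183.7 CPM in the same replicate. Ifit1 was at 23.55 to 59.13 CPM, Stat2 at 53.4 to 82.89 CPM and Oas1g at 18.79 to 92.96 CPM.

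In TNFΔARE mice ATI-450 gave 28 negative and 8 positive fold changes with a median of -0.24 against 0.01 over all genes tested, and no call. None of the 36 had an unadjusted p under 0.05, DESeq2 and limma-voom called 0, and edgeR called 0% of all genes. The smallest p were those of Rtp4 (-1.64 ± 0.94), Mx1 (-1.14 ± 0.73), Oas1a (-0.60 ± 0.42), Isg15 (-0.83 ± 0.58), Usp18 (-0.91 ± 0.72), Ifit1 (-0.66 ± 0.52), Oas1g (-0.65 ± 0.55), Oasl2 (-0.26 ± 0.23), Lgals3bp (0.20 ± 0.18) and Ifit3 (-0.45 ± 0.39), each with an adjusted p of 0.989. Isg15 was at 8.43, 9.41, 9.12, 5.41, 5.60 and 4.57 CPM with the inhibitor, all under the 10.06 to 23.67 CPM of vehicle mice. Isg15 and Oas1a were the members whose ranges did not overlap, where 0.487% of all genes were lower and 0.842% higher without overlap. The fold changes nearest 0 were Bst2 (0.04, 95% interval -0.68 to 0.76), Oas3 (-0.02, -0.69 to 0.65) and Ifi44 (-0.04, -1.11 to 1.04). Vehicle and inhibitor libraries of these mice came mostly from different batches. Within batch 2 the mean log2 CPM over the list differed by -0.297 (1 against 4 libraries), and within batch 3 by -0.247 (5 against 1), with no spread on the side of 1 library.

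In the non-inflamed groups the inhibitor also gave no call, and 0% of all genes were called in either. In non-inflamed transfer mice 23 fold changes were positive, the median was 0.10, and only Ifi27l2a had an unadjusted p under 0.05 (1.07 ± 0.49, adjusted p = 1). The next were Ifit3b (-0.54 ± 0.47), Bst2 (0.42 ± 0.38), Oas2 (0.68 ± 0.64), Eif2ak2 (-0.23 ± 0.22), Ifi44 (0.63 ± 0.62), Oas1g (0.33 ± 0.33), Oas1a (0.25 ± 0.26), Parp14 (-0.27 ± 0.31) and Dtx3l (-0.23 ± 0.27), all with an adjusted p of 1. Mx1 (0.02, 95% interval -1.11 to 1.16), Isg20 (0.02, -0.67 to 0.71) and Ifit1 (0.007, -1.44 to 1.45) were nearest 0.

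In wild-type littermates 30 of 36 fold changes were negative and the median was -0.29. DESeq2 and limma-voom called 0 here and in non-inflamed transfer mice. Ifi27l2a (-1.30 ± 0.36, adjusted p = 0.813) and Ifit3b (-0.76 ± 0.29, adjusted p = 1) had an unadjusted p under 0.05. Usp18 (-1.10 ± 0.54), Oas2 (-0.70 ± 0.36), Mx2 (-0.73 ± 0.40), Ifit3 (-0.56 ± 0.30), Ifit2 (-0.44 ± 0.26), Isg15 (-0.71 ± 0.42), Ifit1 (-0.65 ± 0.39) and Bst2 (-0.45 ± 0.27) followed, with an adjusted p of 1. Parp9 (-0.03, 95% interval -0.42 to 0.35), Parp14 (0.02, -0.52 to 0.56) and Ifih1 (-0.007, -0.24 to 0.23) were nearest 0. All 10 libraries were of batch 2. The negative median rested on vehicle replicate 4: without it, 19 of 36 were positive and the median was 0.06. No member's ranges were apart, where 0.0348% of all genes were higher and 0.334% lower without overlap.

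Whether the inhibitor effect differed between inflamed and non-inflamed mice was tested as an interaction, and none of the 36 was called in either model, with 0% of all genes called. None had an unadjusted p under 0.05, and DESeq2 and limma-voom called 0. In transfer mice the smallest p were those of Ifi27l2a (-0.91 ± 0.64), Ifit2 (1.06 ± 0.80), Cmpk2 (-0.91 ± 0.70), Mx1 (0.82 ± 0.72), Rsad2 (-1.03 ± 0.96), Rtp4 (-0.76 ± 0.71), Isg20 (0.37 ± 0.46), Irf7 (-0.51 ± 0.66), Ifit1 (-0.63 ± 0.93) and Mx2 (-0.65 ± 1.01), with an adjusted p of 1. The largest p were those of Trim30a (-0.02, 95% interval -1.22 to 1.19), Isg15 (-0.02, -1.67 to 1.63) and Eif2ak2 (0.003, -0.64 to 0.64). In the TNFΔARE model the smallest p were those of Ifit3b (0.67 ± 0.46), Ifi27l2a (0.81 ± 0.59), Bst2 (0.49 ± 0.44), Mx1 (-0.82 ± 0.85), Ifi44 (0.64 ± 0.67), Rtp4 (-0.95 ± 1.14), Mx2 (0.57 ± 0.80), Cmpk2 (-0.22 ± 0.32), Dtx3l (0.22 ± 0.32) and Lgals3bp (0.14 ± 0.23), with an adjusted p of 1. The largest were those of Zbp1 (0.06, -1.94 to 2.06), Ifit1 (-0.01, -1.37 to 1.35) and Xaf1 (0.009, -1.06 to 1.08).

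The inflamed and non-inflamed groups were also compared under ATI-450. The group levels come from other libraries than on vehicle, but both comparisons share 1 fit per model, with its batch terms and its estimate of the spread, so they are not independent. In transfer mice Bst2 (1.48 ± 0.35, adjusted p = 0.00504), Ifit2 (2.25 ± 0.59, 0.0096), Usp18 (1.88 ± 0.58, 0.0249) and Lgals3bp (0.72 ± 0.25, 0.0386) rose, and none fell, where 14% of all genes were called higher and 11% lower. Ifit2 was at 9.43, 11.94, 32.93, 31.35, 65.97 and 11.24 CPM in non-inflamed inhibitor mice, all below the 119.2 CPM of the lowest inflamed library. Usp18 was at 1.36, 8.40, 6.71, 5.69, 8.23 and 8.29 CPM, also below the inflamed range from 13.77 CPM. Bst2 was at 10.79, 17.68, 25.36, 34.07, 36.32 and 16.63 CPM and overlapped with it. Lgals3bp was at 124.6 to 300.8 CPM against 315.0 to 456.6 CPM. With each of the 12 libraries left out, Bst2 and Ifit2 kept their calls. Usp18 lost its call without inflamed replicates 1 (adjusted p = 0.0543) or 2 (0.0996) or non-inflamed replicate 6 (0.0715). Lgals3bp kept its call in 4 of the 12 fits, with an adjusted p of up to 0.134 without inflamed replicate 2. It was lost without inflamed replicates 1, 2, 4 or 6, or non-inflamed replicates 1, 3, 5 or 6. Together with Oasl1 and Stat2, these made 5 members without overlap, Bst2 not among them, where 7.39% of all genes were higher and 5.63% lower without overlap.

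The next members in transfer mice under ATI-450 were Mx1 (1.42 ± 0.55, adjusted p = 0.0631), Ifi35 (0.79 ± 0.32, 0.0748), Stat2 (0.62 ± 0.25, 0.0769), Zbp1 (1.20 ± 0.50, 0.0827), Oasl1 (0.92 ± 0.40, 0.0933) and Parp9 (0.53 ± 0.25, 0.125). The median was 0.31 against 0.02 over all genes, with 29 of 36 positive. Irf9 (0.02, 95% interval -0.38 to 0.42), Irf7 (0.05, -0.97 to 1.07) and Isg20 (-0.009, -0.70 to 0.68) were nearest 0.

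In the TNFΔARE model under ATI-450 Ifit2 (1.85 ± 0.33, adjusted p = 0.000873), Bst2 (1.72 ± 0.38, 0.00442) and Lgals3bp (0.61 ± 0.20, 0.0493) rose and Cmpk2 (-1.37 ± 0.29, 0.00315) fell, where 7.91% of all genes were called higher and 4.56% lower. These are the 4 genes called on vehicle, in the same directions. Cmpk2 kept its call with each of the 11 libraries left out. Bst2 (adjusted p = 0.0645) and Ifit2 (0.0771) lost theirs without TNFΔARE replicate 1, the only TNFΔARE inhibitor library of batch 2. The Lgals3bp call held in 1 of the 11 fits, that without TNFΔARE replicate 6 (adjusted p of up to 0.30 in the others), and in 4 of 21 settings in all. Cmpk2 was at 26.0 to 35.28 CPM in TNFΔARE inhibitor mice and at 61.65, 67.14, 114.6, 61.41 and 90.67 CPM in wild-type inhibitor mice, without overlap. Ifit2 was at 23.06, 19.35, 18.86, 21.02, 16.96 and 8.82 CPM against 3.51 to 8.95 CPM, so that the lowest TNFΔARE library touched the wild-type range. Bst2 was at 22.85 to 35.12 CPM against 6.92 to 18.37 CPM, without overlap. Lgals3bp was also higher without overlap, where 12.6% of all genes were. With Cmpk2, Irf7, Mx1, Mx2 and Stat2 were lower without overlap, where 9.97% of all genes were, and none of these 4 was called. Irf7 was at 32.46 to 64.36 CPM against 77.15 to 116.8 CPM.

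Next in the TNFΔARE model were Trim30a (0.96 ± 0.38, adjusted p = 0.109), Ifi44 (1.48 ± 0.58, 0.111), Isg20 (0.97 ± 0.42, 0.149), Ifit3b (0.74 ± 0.40, 0.285), Oas2 (0.77 ± 0.46, 0.352) and Ifih1 (-0.23 ± 0.16, 0.43). The median was 0.002 against -0.008 over all genes. Dhx58 (-0.02, 95% interval -0.80 to 0.75), Irf9 (0.006, -0.55 to 0.56) and Ifit1 (-0.002, -1.21 to 1.20) were nearest 0. Batch 2 held 1 TNFΔARE and 5 wild-type libraries here, and the other 5 TNFΔARE libraries were of batch 3, which held no wild-type library with the inhibitor.

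The genes around the 36 were read from lists of ligands, receptors, inducers and inhibitors. The background of every list count on vehicle is the share of all genes called. It was 7.9% higher and 6.28% lower in transfer mice, and 8.66% and 7.27% in the TNFΔARE model. Of 21 interferon ligands only Ifng passed the count filter in transfer mice, and none did in the TNFΔARE model. Ifnb1 was at 0 in 43 of 44 libraries. Ifng was at 7.72, 2.44, 0.384, 6.08, 3.91 and 10.77 CPM in inflamed and at 0, 0.0527, 0.40, 0 and 1.85 CPM in non-inflamed vehicle transfer mice. The library with small intestinal transcripts, with the highest levels of most of the 36 genes, had the lowest Ifng of the inflamed group. The Ifng change was 3.32 ± 0.94 (adjusted p = 0.022).

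Both chains of the type I receptor rose in both models. On vehicle Ifnar2 changed by 1.31 ± 0.27 (adjusted p = 0.00446) in transfer mice and by 1.41 ± 0.18 (adjusted p = 1.66e-05) in TNFΔARE mice. Ifnar1 changed by 0.43 ± 0.11 (adjusted p = 0.0152) and by 0.40 ± 0.11 (adjusted p = 0.0176). Ifnlr1, the type III receptor chain, fell in TNFΔARE mice (-0.78 ± 0.17, adjusted p = 0.00277), from 15.18 to 23.88 CPM in wild-type to 9.05 to 15.86 CPM in TNFΔARE vehicle libraries. In transfer mice Ifnlr1 changed by 0.12 (adjusted p = 0.722), and its effect differed between the models by 0.89 ± 0.26 (adjusted p = 0.0392). Of 10 receptor and kinase genes, 2 rose in transfer mice, and 2 rose and 1 fell in TNFΔARE mice. Of all genes, 7.9% were called higher in transfer mice, and 8.66% higher and 7.27% lower in TNFΔARE mice.

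Of 16 genes that induce interferon, 5 rose in transfer mice, led by Irf5 (2.10 ± 0.43, adjusted p = 0.00446) and the endosomal RNA receptor gene Tlr7 (1.65 ± 0.39, adjusted p = 0.00876). There, 7.9% of all genes were called higher. In TNFΔARE mice 3 rose and 1 fell, where 8.66% of all genes were called higher and 7.27% lower. Irf5 (1.69 ± 0.31, adjusted p = 0.000792) and Tlr8 (2.19 ± 0.48, adjusted p = 0.0034) led the rise, and Mavs, the mitochondrial adaptor of the RNA sensors, fell. Irf3, which starts interferon beta transcription, changed by -0.03 in transfer and 0.27 in TNFΔARE mice and was not called. Of 8 negative regulators 4 rose in transfer mice, led by Ptpn6 (1.04 ± 0.17, adjusted p = 0.00193) and Trex1 (1.52 ± 0.40, adjusted p = 0.0156), with Socs1 at 2.56 ± 0.83 (adjusted p = 0.0451). In TNFΔARE mice 2 rose, Ptpn6 (0.81 ± 0.19, adjusted p = 0.00636) and Samhd1 (0.50 ± 0.15, adjusted p = 0.0234), and Socs1 was at 0.39. Mapkapk2, the target of the inhibitor, rose by 0.46 ± 0.12 (adjusted p = 0.0146) in transfer and 0.35 ± 0.11 (adjusted p = 0.0365) in TNFΔARE mice. Tnf changed by 2.53 ± 0.87 (adjusted p = 0.0568) in transfer and 5.06 ± 0.41 (adjusted p = 1.16e-07) in TNFΔARE mice.

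A list of 15 genes that lean to interferon gamma, such as Cxcl9, Gbp2 and Irf1, was read beside the 36. In transfer mice on vehicle all 15 fold changes were positive with a median of 1.46, and 1 was called, Socs1. Of all genes, 7.9% were called higher there, and 8.66% in TNFΔARE mice. In TNFΔARE mice 5 of 15 rose with a median of 0.39, led by Gbp3 (1.29 ± 0.20, adjusted p = 0.000192) and Cxcl10 (2.00 ± 0.33, adjusted p = 0.000272). Irf1 changed by 0.68 ± 0.35 (adjusted p = 0.192) and by 0.13. The corresponding medians of the 36 genes were 0.58 and 0.02. The first was -0.05 without the library with small intestinal transcripts, and the median of the 15 genes was not taken without it. With the inhibitor none of the 15 was called in inflamed mice of either model, with medians of 0.43 and 0.14.

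Markers of immune cells moved with inflammation too. On vehicle, monocyte and macrophage markers summed on average to 1875 CPM in inflamed and 266.6 CPM in non-inflamed transfer mice, and to 2689 against 285 CPM in TNFΔARE and wild-type mice, with 7 of 8 called higher in both models. T cell markers averaged 126.9 against 18 CPM in transfer mice, with 7 of 8 called, and 72.4 against 78.4 CPM in the TNFΔARE model, with none called. Of all genes, 7.9% were called higher in transfer and 8.66% in TNFΔARE mice. The library with small intestinal transcripts had the lowest monocyte sum of its group, 218.1 CPM, where it had the highest level of 32 of the 36 genes. The part of these cells in the changes of Bst2, Usp18, Ifit2 and Lgals3bp was not tested.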

How the data were processed

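Poly-A selected RNA from mouse intestine was sequenced from directional libraries, per the labels' protocols. The authors deposited 2 kinds of table for each model: estimated counts per gene, rounded to whole numbers with no scaling (expected counts), and a normalized signal. Tools named in the submitters' processing notes are Salmon 0.14.1 and DESeq2 (no version), with the builds GRCm38 and mm10. Their settings and annotation release: not given in the sources used here. Gene names came from GENCODE M21, which matched 29395 of 29720 identifiers and left 325 without a name.

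The expected counts were tested in R 4.3.3 with edgeR 4.0.16: genes kept by filterByExpr, TMM scaling, a robust quasi-likelihood fit of all 4 groups of a model with group and batch as terms, two-sided tests, Benjamini-Hochberg adjustment over all genes tested and a threshold of 0.05. Between models, 1 joint fit with batch nested in model was used (15565 genes). Levels are CPM on TMM-scaled library sizes, and the mean level is log2 CPM with a prior count of 2. Fitted fold changes take out batch and so need not equal ratios of CPM. Per comparison the text gives the 10 members with the smallest p, the 3 with the largest, and values by library for the 3 smallest p of each vehicle inflammation comparison with Ifit1, Isg15, Irf7, Stat2 and Oas1g. Of the pathway lists, 11 genes were to be named always (1 of them is not reported here), with the 2 smallest p past the threshold of each list. Any other gene is named with its values known. The 36 genes and all lists were chosen with earlier results of these data known.

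On simulated data with 100 genes changed 2-fold and 100 changed 4-fold, the test recovered 45% and 81% for transfer inflammation, 62% and 91% for TNFΔARE inflammation, and 35% and 82% (transfer) or 35% and 78% (TNFΔARE) for the inhibitor in inflamed mice, with 4 to 12 false calls. No pair of replicate libraries agreed within sampling noise (lowest chi-square per gene 8.52 to 61.8 over the groups). The libraries carry no stated molecular identifiers, so PCR copies may count as reads. Alternatives were DESeq2 1.42.0, RLE scaling, limma-voom with quality weights (limma 3.58.1), no batch term, no count filter, the compared groups alone, single batches, a replicate block, limma on log2 of the deposited normalized signal plus 1, prior counts of 0.5 and 5, and each library left out. Older quasi-likelihood settings, and leaving out the library with small intestinal transcripts together with the 4 that hold pancreatic ones, were added after the data were seen.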

Additional observations from a re-analysis of the deposited data

Results flagged for a closer look

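Values far from the rest of their group were sought with Dixon's test in 96 sets of libraries (the mean level and 11 genes in 8 groups). For normal values, chance passes it in about 5% of sets. The test marked 17. Gene levels entered as CPM without logs, and the sets share libraries, so this count cannot be set against that rate. In inflamed vehicle transfer replicate 3, the library with small intestinal transcripts, the mean log2 CPM over the 36 genes was 6.99 (6.988) against 5.02 to 5.71 in the others of its group. In the same library Usp18 was at 188.9 CPM (others 18.93 to 56.28), Cmpk2 at 202.6 CPM (18.92 to 33.7), Lgals3bp at 932.2 CPM (307.0 to 451.6), Ifit1 at 469.7 CPM (26.13 to 76.83) and Irf7 at 580.5 CPM (58.91 to 250.2). In wild-type vehicle replicate 4 the mean log2 CPM was 5.208 against 4.14 to 4.32. Usp18 was at 41.22 CPM there (others 5.65 to 7.97), Ifit1 at 154.8 CPM (32.32 to 38.74), Isg15 at 67.06 CPM (13.76 to 16.74), Irf7 at 218.3 CPM (74.44 to 104.8) and Oas1g at 67.16 CPM (13.66 to 23.69).

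In inflamed inhibitor transfer replicate 6, Isg15 was at 130.4 CPM (others 19.56 to 59.07) and Irf7 at 183.7 CPM (63.95 to 85.93). Non-inflamed vehicle transfer replicate 7 had Ifit2 at 194.5 CPM (others 9.14 to 14.87), and replicate 6 had Ifi27l2a at 25.01 CPM (9.39 to 11.78). Stat2 was at 48.17 CPM in wild-type inhibitor replicate 2 (others 39.98 to 41.69).

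The effect of inflammation on vehicle differed between the models for Usp18, by 2.822 on the log2 scale (higher in transfer mice, adjusted p = 0.0462 in edgeR), and for Cmpk2, by 2.165 (adjusted p = 0.0289). Usp18 was higher in inflamed than in non-inflamed transfer mice, and Cmpk2 was lower in TNFΔARE than in wild-type mice.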

How the results depend on the processing

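For ATI-450 against vehicle and the interactions the count of members called was 0 in every setting. For inflammation on vehicle in transfer mice, 3 members were called, and 8 with no batch term, 6 with a replicate block, 8 with limma-voom, 0 with the normalized signal, 0 with the 2 groups alone, 0 in batch 4 alone and 1 (Ifih1, lower) without the libraries with small intestinal or pancreatic transcripts. With each library left out the count ran from 0 to 5, and in the TNFΔARE model on vehicle from 3 to 9. Under the inhibitor, 4 members were called in transfer mice, against 9 with the block, 16 with limma-voom and 11 with the 2 groups alone (2 to 7 with 1 library left out). In the TNFΔARE model under the inhibitor 4 were called, against 10 with no batch term and 2 with the 2 groups alone (1 to 4). Between the models 2 were called, against 1 with no count filter, 4 with no batch term, 0 with the block, 1 with older quasi-likelihood settings, 0 with limma-voom, 0 with the 4 groups alone and 0 without the libraries with foreign transcripts (0 to 3). The cause of these changes was not tested. The other counts stayed within 1.5 times. Shares of all genes called in these other settings are not given here. From these counts alone, a setting that calls more of every gene cannot be told from one that moves the members.

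Some fold changes that were not called turned sign. On vehicle in transfer mice, limma-voom gave Ifit1 -0.594, Isg15 -0.108, Oas1g -0.217 and Irf7 -0.463. Leaving out the libraries with foreign transcripts gave Ifit1 -0.856, Isg15 -0.028, Oas1g -0.075 and Irf7 -0.26, the normalized signal gave Irf7 -0.051, and the 2 groups alone gave Stat2 -0.012. In the TNFΔARE model on vehicle Ifit1 was -0.014 with RLE scaling, -0.029 with no batch term and -0.015 with DESeq2, and limma-voom gave Isg15 0.126 and Irf7 0.003. For the inhibitor in inflamed transfer mice, limma-voom gave Ifit1 0.481, Irf7 0.635 and Stat2 -0.051, and the normalized signal gave Ifit1 0.039 and Irf7 0.197. Without the libraries with foreign transcripts Ifit1 was 1.283 and Irf7 0.658. With no batch term Isg15 was -0.702, Oas1g -0.538 and Stat2 -0.273, with the replicate block -0.72, -0.322 and -0.183, and with the 2 groups alone Stat2 was -0.198. With each library left out, Ifit1 ran from -0.451 to 1.163 (transfer, vehicle), -0.216 to 0.791 (TNFΔARE, vehicle) and -0.791 to 0.354 (inhibitor, inflamed transfer). Irf7 ran from -0.113 to 0.815, -0.584 to 0.042 and -0.266 to 0.428 in these 3 comparisons. Isg15 ran from -0.698 to 0.227 in the TNFΔARE model, Oas1g from -0.176 to 0.252 (transfer) and -0.142 to 0.334 (inhibitor), and Stat2 from -0.03 to 0.236 (inhibitor). The cause was not tested.

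Bst2, Ifit2 and Cmpk2 in the TNFΔARE model on vehicle passed the threshold in each of 21 settings (largest adjusted p 0.0126, 0.00284 and 0.0102 in the respective order). Usp18, Bst2 and Ifi27l2a in transfer mice on vehicle passed in 17, 14 and 11 of 23. Replicate numbers are shared between groups in the labels, and whether same-numbered libraries belong together is not stated. Their deviations from the group means correlated over 0.1 in 0 to 3 pairs per comparison, with batch not taken out. In non-inflamed transfer mice 3 of 4 pairs did, with a median correlation of 0.323. The main fits do not pair them, and the replicate block above is the alternative that does. Fold changes of members other than those above were recomputed only within the counts and medians. In the inhibitor comparisons 35% of simulated 2-fold changes were recovered, so changes of that size could be missed; depth was not varied.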
